A study of Homo sapiens with 6 samples.

Results

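The comparison described here sets all 4 libraries of ACHN cells given a MEX3A siRNA against the 2 control libraries, to describe what both siRNAs have in common. ACHN is a widely used human line derived from an adenocarcinoma of the kidney. NC cells received a negative control siRNA, and the cells labelled siMEX3A_1 or siMEX3A_2 received 1 of 2 siRNAs directed at MEX3A. All cultures were thus transfected, RNA was prepared after 48 h, and 2 mRNA libraries per group were sequenced. A gene belonged to the common response when its scaled count in all 4 siRNA libraries lay above, or below, both NC libraries, and 8232 of 18583 tested genes (44.3%) did so. Since that rule reads the same counts as the pooled comparison, it is given as a description, and the pooled test is given beside it. Both siRNAs are set against the same NC libraries, so a shared side does not by itself show a shared response.

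MEX3A is an RNA-binding protein with KH domains that contact RNA and a RING finger, and belongs to the small MEX3 family. The series asks about MEX3A and the passage from G1 into S phase. In that pathway cyclin D and cyclin E kinases phosphorylate RB and its relatives RBL1 and RBL2, which releases E2F factors; E2F1, E2F2 and E2F3 switch on genes for DNA replication, while E2F7 and E2F8 repress them. CDK inhibitors such as CDKN1A and CDKN2B hold the kinases back.

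The libraries held between 18825750 and 19158723 counts each, and the 10 most abundant genes took between 10.9% and 11.9% of them. Mitochondrial genes took 11.4% and 11.5% of the counts in NC, 9.94% and 9.98% with siMEX3A_1, and 11.8% and 11.9% with siMEX3A_2. All 10 markers fixed for a renal epithelial line were present, among them PAX8, PAX2 and KRT18. Of markers of other cells, only CD3D, CD3E and the neuronal gene STMN2 were at 0 in every library, which allows up to 3 counts of any library's total, in counting error only. Some of the other markers were well expressed. In NC replicate 1 THY1 of the fibroblast list had 12576 counts, TUBB3 of the neuron list 1616, EGFL7 of the endothelial list 537 and CD68 of the immune list 296. Nothing in the labels ties the 2 libraries of a group to separate cultures. The p-values therefore reflect spread from library to library, part of which may be technical. In the pooled test that spread includes the difference between the 2 siRNAs.

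In the pooled comparison 2199 of 18583 genes (11.8%) passed a Benjamini-Hochberg adjusted p of 0.05 in edgeR's quasi-likelihood test, of which 1141 were higher after the siRNAs (6.14% of genes tested) and 1058 lower (5.69%). There were 5282 genes at an unadjusted p under 0.05. The 2199 genes are referred to as called, and a gene said to rise or fall by a number does so on the log2 scale. By the one-side rule 4088 genes lay above both NC libraries (22.0%) and 4144 below (22.3%). All 2199 called genes obeyed the one-side rule, and the other 6033 one-side genes (73.3% of them) did not pass the test. Where a called gene is said below to lie apart from NC, that describes its values and adds no support to the call. The median log2 fold change over all tested genes was 0.02; among called genes it was 0.93 for those higher and -1.09 for those lower. Of the called genes 502 rose and 592 fell by at least 2-fold, and 79 and 157 by at least 4-fold.

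The pooled test treats the siRNAs as 1 group, so that a difference between them counts as spread, and a gene moved by a single siRNA is less readily called. It also takes the siRNA libraries as independent, although they are pairs within siRNAs. Its SEs and p-values may therefore be too small as measures of a response common to siRNAs. That difference was wide. In the direct test of siMEX3A_1 against siMEX3A_2, which uses no NC library, 9582 of 18583 genes (51.6%) differed. The biological coefficient of variation that edgeR estimated was 26.8% when the siRNAs were joined and 6.26% when they were kept apart. With the groups kept apart and the mean of both siRNAs set against NC, 9625 genes passed. The calls also rested on both NC libraries: without either of them edgeR called 0 genes, with 3025 and 2882 at an unadjusted p under 0.05, and the lowest adjusted p of any gene named here was 0.0759 and 0.0776. DESeq2 on all 6 libraries called 3433 genes, among them 2142 of the 2199.

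**Figure D1:**
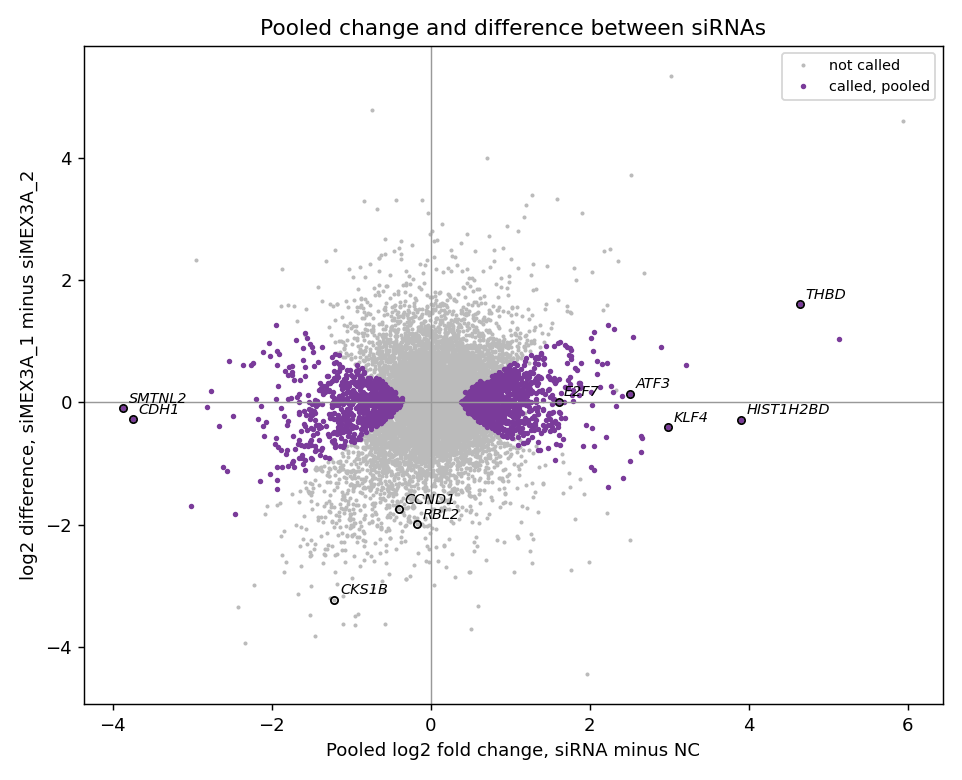
Pooled log2 fold change of the 4 siRNA libraries against the 2 NC libraries (horizontal axis) and log2 difference between siMEX3A_1 and siMEX3A_2 (vertical axis) for the 11581 genes with a mean normalized count of at least 100 and a summed count above 3 in every group. The 1686 called genes (purple) spread out from the horizontal zero line in 2 wedges, and none of them differs between siRNAs by more than 1.83 on the log2 scale, while CCND1, RBL2 and CKS1B sit near or left of the vertical zero line with large differences between siRNAs.

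MEX3A itself was scarce and only moderately reduced. Its normalized count, the count divided by the TMM-scaled library size, was 93.3 and 106 in NC, 56.6 and 65.3 with siMEX3A_1, and 73.0 and 76.1 with siMEX3A_2. All 4 siRNA libraries lay below both NC libraries. The mean over the 4 was 32.1% lower, and the pooled log2 fold change, -0.56 (SE 0.19), did not pass over all genes (edgeR, adjusted p = 0.110). With the groups kept apart the mean of both siRNAs did pass (edgeR, adjusted p = 0.00903). By an exact permutation test of this gene alone over the 15 ways to pick 4 libraries, p was 0.0667 (two-sided), the smallest p that this number of libraries allows. With all 4 libraries below NC the observed split is the most extreme on its side, so this p adds nothing to that separation. The test also treats the libraries as exchangeable, although they are pairs within groups. Taken singly, the log2 values of MEX3A were -0.71 for siMEX3A_1, which passed (edgeR, adjusted p = 0.00655), and -0.42 for siMEX3A_2, which did not (adjusted p = 0.0644), a difference that did not pass the direct test (adjusted p = 0.212). In the authors' deposited DESeq2 comparisons MEX3A had log2 values of -0.71 with siMEX3A_1 and -0.42 with siMEX3A_2. Neither passed there (adjusted p = 0.137 and 0.392). The sequences of the siRNAs are not analysed here.

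Among MEX3A's relatives, MEX3D rose, from 248 and 232 normalized counts in NC to 425 and 441 (siMEX3A_1) and to 383 and 343 (siMEX3A_2), a log2 fold change of 0.73 (SE 0.15; edgeR, adjusted p = 0.0329). No siRNA library overlapped NC. That call was lost when any of 3 siRNA libraries was left out (adjusted p up to 0.0691). MEX3B was at 98.3 and 89.7 in NC, 88.0 and 117 with siMEX3A_1 and 201 and 206 with siMEX3A_2, where it was highest (direct test, adjusted p = 0.00046). MEX3C lay between 489 and 531 in the siRNA libraries and at 575 and 537 in NC, a log2 fold change of -0.13 that was not called.

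Of 24 regulators of the G1/S passage, 4 fell, 1 rose and 19 were not called, and 13 lay below both NC libraries and 4 above. The shares over all tested genes, to be read beside this and each later list, were 5.69% called lower and 6.14% called higher. By the one-side rule they were 22.3% below and 22.0% above. Their median log2 fold change was -0.39 in the pooled comparison, -0.81 with siMEX3A_1 and -0.11 with siMEX3A_2, against 0.02 over all genes in the pooled comparison. CDC25A, the phosphatase that activates CDK2, had normalized counts of 534 and 510 in NC, 161 and 199 with siMEX3A_1, and 192 and 206 with siMEX3A_2, a log2 fold change of -1.46 (SE 0.14; edgeR, adjusted p = 0.00564). Its 4 siRNA values overlapped each other and lay far below NC. SKP2, the ubiquitin ligase subunit that removes CDKN1B, fell from 865 and 826 to between 452 and 503, a log2 fold change of -0.81 (SE 0.11; edgeR, adjusted p = 0.00947). CCNE1, cyclin E1, fell from 208 and 241 to between 121 and 135, a log2 fold change of -0.80 (SE 0.14; edgeR, adjusted p = 0.0194). The call of CCNE1 was lost without either of 2 siRNA libraries (adjusted p up to 0.0506). For these 3 genes the difference between siRNAs did not pass the direct test.

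The E2F factors moved apart. E2F7, a repressor, rose from 1150 and 1029 normalized counts in NC to 2939 and 3740 with siMEX3A_1 and 3238 and 3391 with siMEX3A_2, a log2 fold change of 1.61 (SE 0.14; edgeR, adjusted p = 0.00503) with nearly the same size for each siRNA, 1.62 and 1.61. Every siRNA library was above every NC library by a wide gap. E2F2, an activator, fell from 165 and 208 to 11.1 and 7.14 with siMEX3A_1 and 37.0 and 54.1 with siMEX3A_2, a log2 fold change of -2.76 (SE 0.68; edgeR, adjusted p = 0.0498). It was lower than NC with both siRNAs and lowest with siMEX3A_1 (direct test, adjusted p = 0.000356), and the call was lost without any of 3 siRNA libraries (adjusted p up to 0.0833). E2F1, with 247 and 241 in NC, 41.5 and 42.9 with siMEX3A_1 and 123 and 136 with siMEX3A_2, lay on the low side in all 4 libraries and was not called (adjusted p = 0.118). E2F8 had log2 values of -2.72 and -1.29 for the siRNAs and an adjusted p of 0.0758. The activator E2F3 lay above NC in all 4 libraries, at 1208, 1396, 1300 and 1279 against 1043 and 975, with a log2 fold change of 0.36 (adjusted p = 0.0907).

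Several members named in the textbook pathway did not share a direction. CCND1, cyclin D1, had 8347 and 8089 normalized counts in NC, 2751 and 2954 with siMEX3A_1 and 9618 and 9553 with siMEX3A_2. The first siRNA left it lower than NC and the second higher, and the direct test between them gave an adjusted p of 2.0e-08. RBL2, the RB relative p130, was likewise on both sides, at 1446 and 1254 in NC, 470 and 495 with siMEX3A_1, and 1903 and 1942 with siMEX3A_2. RB1 stood at 1388 and 1259 in NC, 1055 and 1261 with siMEX3A_1, and 2030 and 2173 with siMEX3A_2, so that the siMEX3A_1 libraries reached into the NC range and the siMEX3A_2 libraries lay above it. CDK6 and CDK2 also had siRNA libraries on both sides of NC. CKS1B, a small CDK-binding protein, lay below NC in all 4 libraries but unevenly, at 159 and 195 with siMEX3A_1 and 1685 and 1635 with siMEX3A_2, against 2119 and 2130. Of the 24 genes, 16 differed between the siRNAs, 14 of them lower with siMEX3A_1. Over all tested genes 51.6% differed.

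Among 6 tested CDK inhibitors 2 rose and 4 were not called. CDKN2B, the inhibitor p15 of the cyclin D kinases, rose from 382 and 383 normalized counts to 1265 and 1419 with siMEX3A_1 and 1150 and 1106 with siMEX3A_2, a log2 fold change of 1.69 (SE 0.15; edgeR, adjusted p = 0.00503). CDKN1A, the inhibitor p21, rose from 5528 and 5953 to 17694 and 17010 with siMEX3A_1 and 10192 and 10145 with siMEX3A_2, a log2 fold change of 1.26 (SE 0.29; edgeR, adjusted p = 0.0428). Neither gene had an siRNA library within the NC range. The call of CDKN1A was lost without either siMEX3A_1 library (adjusted p up to 0.0797). CDKN1B, CDKN2C, CDKN2D and CDKN1C had siRNA libraries on both sides of, or within, the NC values.

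**Figure D2:**
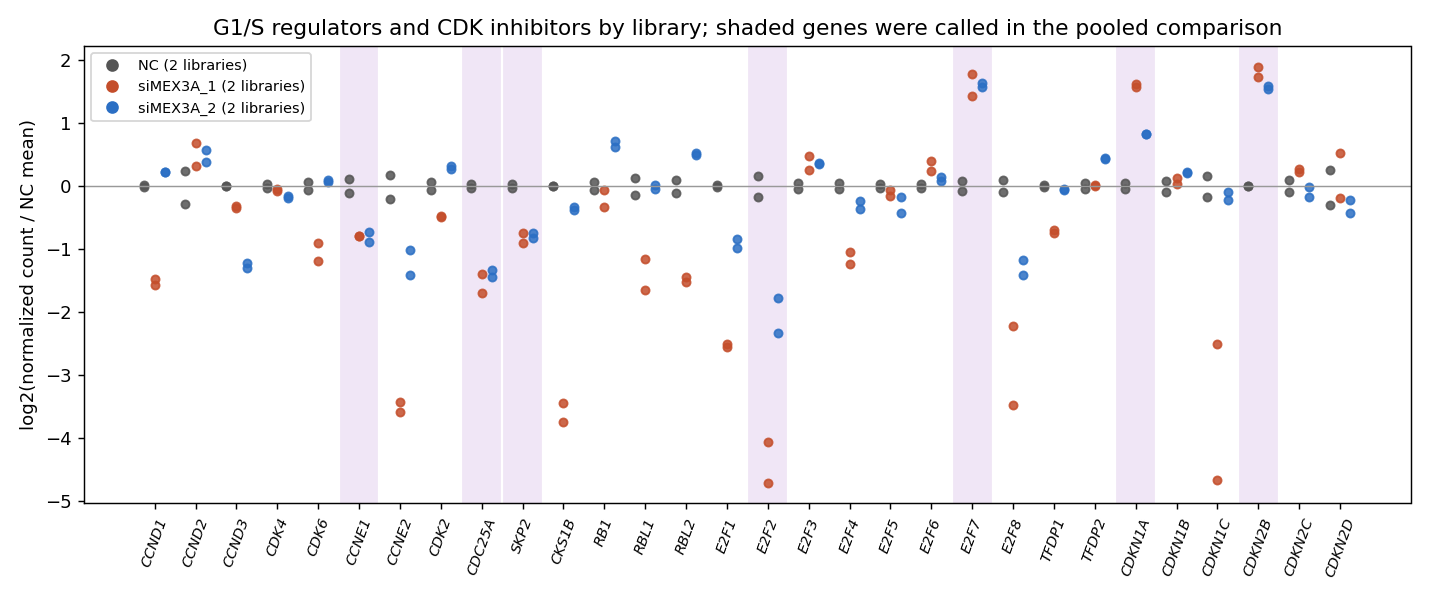
Level of each tested G1/S regulator and CDK inhibitor in every library, as log2 of its normalized count over the NC mean; points are single libraries, in grey for NC, orange for siMEX3A_1 and blue for siMEX3A_2, and shading marks the 7 called genes. CDC25A, SKP2, CCNE1 and E2F7 have orange and blue points at the same height, whereas CCND1 and RBL2 have orange points below the NC line and blue points above it.

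Promoters of 5 genes of the G1/S and replication lists, all of them lower in every siRNA library than in NC, are shown because their RefSeq sequences (GRCh38.p14) hold a word that E2F factors are known to bind. The words searched on both strands, between 250 bases and 1 base before the annotated start, were TTTCCCGC, TTTGGCGC, TTTCGCGC and TTTGCCGC, and matches may overlap one another. Capitals mark each match, and each window is 100 bases, 5′ to 3′ on the strand of the gene. The windows lie at chr3:48188418-48188517 (minus strand) for CDC25A, chr1:23531234-23531333 (minus) for E2F2, chr20:33686386-33686485 (minus) for E2F1, chr2:135876542-135876641 (minus) for MCM6 and chrX:24693735-24693834 (plus) for POLA1.
CDC25A: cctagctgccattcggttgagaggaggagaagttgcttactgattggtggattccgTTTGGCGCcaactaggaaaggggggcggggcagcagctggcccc
E2F2: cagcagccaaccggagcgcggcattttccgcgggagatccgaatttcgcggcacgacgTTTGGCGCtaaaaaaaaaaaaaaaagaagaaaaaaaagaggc
E2F1: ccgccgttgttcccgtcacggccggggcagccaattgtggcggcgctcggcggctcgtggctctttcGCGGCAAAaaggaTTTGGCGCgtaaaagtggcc
MCM6: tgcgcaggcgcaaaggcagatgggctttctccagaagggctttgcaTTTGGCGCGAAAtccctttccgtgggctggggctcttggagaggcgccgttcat
POLA1: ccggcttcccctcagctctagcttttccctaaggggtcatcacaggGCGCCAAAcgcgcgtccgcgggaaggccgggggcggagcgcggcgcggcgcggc
Counted from -1, the base before the start, the match begins at -44 in CDC25A, -42 in E2F2 and -137 in POLA1, and E2F1 holds 2 matches, from -33 and from -20. MCM6 held 4 matches in all, in 2 overlapping pairs, 1 of which is shown. Such a word stood in 979 of all 35116 RefSeq promoters (2.79%) and in 4.09% of the 11872 promoters matched to tested genes. It stood in 5.43% of promoters of called genes that fell and 2.57% of those that rose. By list it stood in 6 of 16 promoters of origin licensing genes, 7 of 20 of the polymerase group and 5 of 18 of the G1/S regulators. Genes that did not fall hold such words as well: RBL1 of the G1/S list has 2 and had siMEX3A_2 libraries within the NC range, at 393 and 377 against 425 and 352, and BTG1, which rose by 1.19 (edgeR, adjusted p = 0.0074), has 1. A match describes the letters only and was not tested for binding.

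The genes of DNA replication lay lower after both siRNAs. Origin licensing and helicase genes, which load and start the replicative helicase, numbered 19, of which 3 fell, 0 rose and 16 were not called; 17 lay below both NC libraries. Their median log2 fold change was -1.22 pooled, -2.05 with siMEX3A_1 and -0.65 with siMEX3A_2. MCM6, a helicase subunit, fell from 1913 and 1877 normalized counts to 387 and 364 with siMEX3A_1 and 613 and 637 with siMEX3A_2, a log2 fold change of -1.92 (SE 0.26; edgeR, adjusted p = 0.00917). MCM3, another subunit, fell from 1841 and 1922 to 471 and 445 and to 688 and 658, a log2 fold change of -1.73 (SE 0.21; edgeR, adjusted p = 0.00702). DBF4, which activates the CDC7 kinase at origins, fell from 1664 and 1739 to between 795 and 937, a log2 fold change of -0.98 (SE 0.12; edgeR, adjusted p = 0.00702). For the helicase subunits the siMEX3A_1 libraries were the lowest, while GMNN, the licensing inhibitor geminin, was lowest with siMEX3A_2, at 111 and 103 against 280 and 259 with siMEX3A_1 and 582 and 626 in NC, and was not called (adjusted p = 0.0585).

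Of 22 genes for replicative polymerases, the sliding clamp and nucleotide supply, 9 fell, 0 rose and 13 were not called, and all 22 lay below both NC libraries. Their medians were -1.13 pooled, -1.78 with siMEX3A_1 and -0.71 with siMEX3A_2 on the log2 scale. POLA1, the catalytic subunit of the primase-associated polymerase, fell from 395 and 336 normalized counts in NC to 150 and 182 with siMEX3A_1 and to 146 and 147 with siMEX3A_2, a log2 fold change of -1.23 (SE 0.15; edgeR, adjusted p = 0.00787). POLD1 and RFC5, a lagging-strand polymerase and a clamp loader subunit, fell by 1.15 and 1.66. By the mean of both siRNAs with the groups kept apart, all 22 genes of this list and all 19 licensing genes were lower.

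Most genes of mitosis lay below NC as well, with few calls. Of 16 mitotic kinases and cyclins 2 fell and 14 were not called, and of 21 genes for chromosome segregation and the spindle 1 fell and 20 were not called, with 13 and 17 genes below both NC libraries and 0 above. Over all tested genes 5.69% were called lower, so the 1 of 21 is close to that share, and 22.3% lay below both NC libraries. The median of the kinases was -2.06 with siMEX3A_1 and -0.45 with siMEX3A_2, and that of the segregation genes -2.20 and -0.36. CCNA2, cyclin A2, had 2027 and 1959 normalized counts in NC, 427 and 466 with siMEX3A_1, and 445 and 481 with siMEX3A_2, a log2 fold change of -2.13 (SE 0.10; edgeR, adjusted p = 0.00196). Its 4 siRNA values lay close together, and the siRNAs did not differ by the direct test (adjusted p = 0.619). PLK1, a kinase of mitotic entry and exit, fell from 3633 and 3881 to 861 and 780 with siMEX3A_1 and to 1745 and 1534 with siMEX3A_2, a log2 fold change of -1.61 (SE 0.34; edgeR, adjusted p = 0.0334). CDC20, an activator of the anaphase-promoting complex, fell from 2950 and 2876 to 711 and 709 and to 1447 and 1222, a log2 fold change of -1.51 (SE 0.32; edgeR, adjusted p = 0.0321). The last 2 calls were lost without any of 3 siRNA libraries (adjusted p up to 0.0602 and 0.0601). TOP2A, the topoisomerase that untangles sister chromatids, had 4972 and 4794 in NC, 907 and 1011 with siMEX3A_1, and 3039 and 3232 with siMEX3A_2, so all 4 libraries were lower but it was not called (adjusted p = 0.203).

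Of 12 genes for homologous recombination and the Fanconi anaemia pathway, which repair broken and crosslinked DNA, 1 fell, 0 rose and 11 were not called, with 10 below both NC libraries. The 1 call is close to the 5.69% of all tested genes called lower, while 22.3% of tested genes lay below both NC libraries. The called gene was FANCA, with 986 and 989 normalized counts in NC, 250 and 232 with siMEX3A_1, and 443 and 474 with siMEX3A_2; its log2 fold change was -1.50 (SE 0.32; edgeR, adjusted p = 0.0336), and the call was lost without either siMEX3A_1 library (adjusted p up to 0.0597). FANCD2 was at 1020 and 1074, 101 and 119, and 567 and 551, below NC throughout and not called. In these bulk libraries fewer cells in S phase or mitosis and less of each RNA per cell cannot be told apart.

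For mitotic genes the word TTTGAA, known as the cell cycle homology region, and CRE, the word TGACGTCA to which CREB and ATF proteins are known to bind, were searched in the same promoter windows on both strands. PLK1 at chr16:23678789-23678888 (plus strand) and CCNA2 at chr4:121823911-121824010 (minus strand) are printed as examples of called mitotic genes with a match (CDC20 also holds TTTGAA, in 2 places), and PPP1R15A at chr19:48872317-48872416 (plus strand) and AREG at chr4:74445025-74445124 (plus strand) as rising genes with the same CRE word, in capitals.
PLK1: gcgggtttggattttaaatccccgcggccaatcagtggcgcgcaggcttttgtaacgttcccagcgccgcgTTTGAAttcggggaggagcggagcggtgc
CCNA2: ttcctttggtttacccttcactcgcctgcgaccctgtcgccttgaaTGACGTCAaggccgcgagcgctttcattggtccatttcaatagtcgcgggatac
PPP1R15A: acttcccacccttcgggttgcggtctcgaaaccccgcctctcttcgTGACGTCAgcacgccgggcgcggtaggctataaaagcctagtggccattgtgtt
AREG: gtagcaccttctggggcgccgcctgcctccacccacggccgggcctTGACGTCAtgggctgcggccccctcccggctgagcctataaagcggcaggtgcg
TTTGAA stood in 9 of 18 promoters of segregation genes and 5 of 12 of mitotic kinases and cyclins, against 9.11% of tested genes and 13.3% of all RefSeq promoters. Among called genes that fell the share was 6.20%, below that of tested genes, and among those that rose 9.16%. TGACGTCA stood in 2.59% of tested genes, in 3.35% of called genes that rose and in 2.07% of those that fell, so CRE words were found on both sides of the response.

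Most tested replication-dependent histone genes rose. Their transcripts normally end in a stem loop without a poly(A) tail and peak in S phase. Of 18 listed genes 11 were tested, of which 8 rose, 0 fell and 3 were not called. All 11 tested lay above both NC libraries, with a median of 1.84 on the log2 scale. The filter on low counts can keep a gene through its siRNA libraries alone, which may raise that share. Whether these mRNA libraries hold all such transcripts or mainly those with a tail was not tested. HIST1H2BD had 27.8 and 16.6 normalized counts in NC, 307 and 294 with siMEX3A_1, and 333 and 398 with siMEX3A_2, a log2 fold change of 3.90 (SE 0.29; edgeR, adjusted p = 0.0037). HIST3H2A rose from 43.7 and 36.1 to between 199 and 232, a log2 fold change of 2.40 (SE 0.18; edgeR, adjusted p = 0.0037). HIST1H2AC and HIST1H1C rose by 1.57 and 1.84. The groups did not overlap in any of these 4 genes, and the medians were similar, 1.68 with siMEX3A_1 and 1.92 with siMEX3A_2. Histone genes have near-identical copies among which the authors' counting may have divided reads, so single members are uncertain.

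Of 27 p53 targets 13 rose, 0 fell and 14 were not called, and 22 lay above both NC libraries; their median was 0.72 on the log2 scale. CDKN1A is also one of them. BTG2, an antiproliferative cofactor of deadenylation, rose from 543 and 541 normalized counts to 1480 and 1401 with siMEX3A_1 and 1787 and 1893 with siMEX3A_2, a log2 fold change of 1.60 (SE 0.17; edgeR, adjusted p = 0.00595). BBC3, the proapoptotic protein PUMA, rose from 171 and 120 to 595 and 589 and to 448 and 504, a log2 fold change of 1.88 (SE 0.22; edgeR, adjusted p = 0.00694). FDXR, a mitochondrial reductase, rose from 595 and 668 to between 1392 and 1534, a log2 fold change of 1.21 (SE 0.12; edgeR, adjusted p = 0.00564). In all 3 genes every siRNA library exceeded NC. TP53I3 rose by 0.96 with the same separation.

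Of 15 tested immediate early and AP-1 genes 5 rose, 1 fell and 9 were not called. ATF3, a stress-induced repressor, had 603 and 624 normalized counts in NC, 3574 and 3772 with siMEX3A_1, and 3316 and 3349 with siMEX3A_2, a log2 fold change of 2.51 (SE 0.12; edgeR, adjusted p = 0.00196). FOSB, an AP-1 subunit, rose from 84.4 and 88.7 to 329 and 316 and to 484 and 465, a log2 fold change of 2.20 (SE 0.25; edgeR, adjusted p = 0.00669). FOSL1, another AP-1 subunit, rose from 5158 and 5325 to between 8117 and 8310, a log2 fold change of 0.65 (SE 0.09; edgeR, adjusted p = 0.00949). KLF4, a zinc finger factor linked to growth arrest and no member of that list, rose from 45.7 and 60.5 to 336 and 391 and to 510 and 453, a log2 fold change of 2.99 (SE 0.25; edgeR, adjusted p = 0.0049).

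Of 18 tested ATF4 targets 4 rose, 3 fell and 11 were not called, so the list did not move one way. DDIT3, the stress factor CHOP, rose from 405 and 427 normalized counts to 1661 and 1667 with siMEX3A_1 and to 1004 and 1114 with siMEX3A_2, a log2 fold change of 1.71 (SE 0.27; edgeR, adjusted p = 0.0144). CEBPB rose from 317 and 318 to between 739 and 898, a log2 fold change of 1.40 (SE 0.13; edgeR, adjusted p = 0.00564). PSAT1, an enzyme of serine synthesis, fell from 4956 and 4677 to between 2660 and 2772, a log2 fold change of -0.82 (SE 0.09; edgeR, adjusted p = 0.006). PPP1R15A, the GADD34 subunit that reverses eIF2 phosphorylation, is in none of the lists and had 1 of the 5 largest rises of genes with a mean of at least 1000; it rose from 559 and 579 to 3046 and 2868 and to 2594 and 2653, a log2 fold change of 2.29 (SE 0.13; edgeR, adjusted p = 0.00259). The called genes of both directions did not overlap NC in any library. Of 20 genes for ER folding and the unfolded protein response 0 were called in either direction. Their medians were 0.56 with siMEX3A_1 and -0.39 with siMEX3A_2, and 19 of the 20 differed between the siRNAs. Over all tested genes 11.8% were called and 51.6% differed between the siRNAs.

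Several growth factor ligands rose. Of 11 EGF family ligands and receptors 4 rose, all of them ligands, and 7 were not called. AREG, amphiregulin, rose from 120 and 105 normalized counts to 629 and 650 with siMEX3A_1 and to 403 and 419 with siMEX3A_2, a log2 fold change of 2.22 (SE 0.28; edgeR, adjusted p = 0.00798). EREG, epiregulin, rose from 606 and 536 to 2381 and 3063 and to 2276 and 2310, a log2 fold change of 2.13 (SE 0.18; edgeR, adjusted p = 0.00475). NRG1 and BTC, neuregulin and betacellulin, rose by 0.86 and 0.74, calls that were lost without 1 and without any of 3 siRNA libraries (adjusted p up to 0.050 and 0.0745). Of 15 feedback regulators of growth factor signalling 3 rose and 1 fell. DUSP5, a phosphatase of ERK, rose from 1567 and 1846 to 7254 and 7335 and to 6705 and 6310, a log2 fold change of 2.02 (SE 0.13; edgeR, adjusted p = 0.00329), and ERRFI1, an EGFR inhibitor, rose by 1.49, whereas DUSP7 fell by 1.45.

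Of 21 NF-kappaB and inflammatory genes 5 rose, 1 fell and 15 were not called. The chemokine CXCL1 rose from 313 and 385 normalized counts to 1649 and 1821 with siMEX3A_1 and to 1218 and 1293 with siMEX3A_2, a log2 fold change of 2.10 (SE 0.23; edgeR, adjusted p = 0.006), and CXCL8 rose from 165 and 161 to 779 and 939 and to 461 and 496, a log2 fold change of 2.04 (SE 0.35; edgeR, adjusted p = 0.0188). The cytokine IL6 went the other way, from 1889 and 1911 to 921 and 938 and to 671 and 731, a log2 fold change of -1.22 (SE 0.17; edgeR, adjusted p = 0.00947). All 3 had siRNA and NC libraries apart. Of 21 interferon and RNA-sensing genes, the class that responds to double-stranded RNA, 1 rose (IRF9, by 0.60, lost without any 1 of the 4 siRNA libraries at an adjusted p up to 0.0645), 1 fell and 19 were not called. These counts are close to the shares over all tested genes, 6.14% called higher and 5.69% called lower.

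Some junction genes of the epithelium fell. Of 21 tested genes 6 fell, 0 rose and 15 were not called, with 9 below and 3 above both NC libraries and a median of -0.21. CDH1, E-cadherin, the adhesion protein of epithelial junctions, had 784 and 693 normalized counts in NC, 37.4 and 62.2 with siMEX3A_1, and 49.0 and 71.1 with siMEX3A_2, a log2 fold change of -3.75 (SE 0.25; edgeR, adjusted p = 0.00329). CLDN3, a claudin of tight junctions, fell from 85.4 and 100.4 to between 6.0 and 11.1, a log2 fold change of -3.42 (SE 0.27; edgeR, adjusted p = 0.00419). CGN, the tight junction protein cingulin, fell from 308 and 301 to between 78.6 and 114, a log2 fold change of -1.64 (SE 0.20; edgeR, adjusted p = 0.00702). The siRNAs overlapped each other in CDH1 and CLDN3, and NC stood well above both. CDH16, a kidney cadherin, fell by 1.93.

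Mesenchymal genes gave 3 rises, 0 falls and 10 not called of 13. FN1, fibronectin, rose from 52096 and 46532 normalized counts to 154640 and 170664 with siMEX3A_1 and to 128502 and 125066 with siMEX3A_2, a log2 fold change of 1.55 (SE 0.16; edgeR, adjusted p = 0.00595). SNAI2, a repressor of CDH1 also known as SLUG, rose from 59.6 and 66.3 to 399 and 469 and to 185 and 193, a log2 fold change of 2.31 (SE 0.49; edgeR, adjusted p = 0.0336), a call lost without either siMEX3A_1 library (adjusted p up to 0.0627). ACTA2, smooth muscle actin, rose from 590 and 614 to between 1205 and 1437, a log2 fold change of 1.15 (SE 0.12; edgeR, adjusted p = 0.00598). VIM, vimentin, lay above NC in all 4 libraries and was not called (adjusted p = 0.0995). Of 5 tested fibroblast markers 1, THY1, fell and 4 were not called, with 3 below both NC libraries and 2 between. The summed level of all 8 listed was 742 to 765 CPM, counts scaled to a common library size, in NC, 350 to 391 with siMEX3A_1, and 338 to 351 with siMEX3A_2, most of it from THY1, which fell by 1.13 (edgeR, adjusted p = 0.00666). All 8 listed fibroblast markers had counts in some library.

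Of 13 genes of polarity cadherins and planar polarity 4 fell and 9 were not called, with CELSR2 falling from 871 and 809 normalized counts to 194 and 161 with siMEX3A_1 and to 113 and 109 with siMEX3A_2, a log2 fold change of -2.54 (SE 0.25; edgeR, adjusted p = 0.00564). SMAD6, an inhibitor of BMP signalling, fell from 409 and 393 to between 96.0 and 111, a log2 fold change of -1.95 (SE 0.13; edgeR, adjusted p = 0.00329). INHBA, the activin A subunit, rose from 2580 and 2412 to between 7897 and 9324, a log2 fold change of 1.79 (SE 0.12; edgeR, adjusted p = 0.00355). LAMA5, a laminin of basement membranes, fell from 3054 and 2928 to between 1109 and 1225, a log2 fold change of -1.37 (SE 0.10; edgeR, adjusted p = 0.00355). As in every called gene, none of these 4 had an siRNA library in the NC range. Of 12 tested kidney lineage genes 1 fell and 11 were not called, close to the 5.69% of all tested genes called lower. PAX8, the renal lineage factor, went from 15228 and 16114 to between 10417 and 12358, a log2 fold change of -0.44 (SE 0.10; edgeR, adjusted p = 0.0434), a call lost without any 1 of the 4 siRNA libraries (adjusted p up to 0.0955).

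Of 28 tested lysosome and autophagy genes 8 rose, 0 fell and 20 were not called, with 16 above both NC libraries, 0 below and a median of 0.44. GRN, progranulin, rose from 4869 and 4978 normalized counts to between 8731 and 9642, a log2 fold change of 0.90 (SE 0.09; edgeR, adjusted p = 0.00595). SQSTM1, the autophagy receptor p62, rose from 22301 and 23013 to between 36019 and 37507, a log2 fold change of 0.70 (SE 0.08; edgeR, adjusted p = 0.007). The difference between siRNAs did not pass the direct test for GRN and SQSTM1. CD68, a lysosomal glycoprotein that stands in the list of immune markers, rose from 294 and 320 to between 570 and 613, by 0.95 (edgeR, adjusted p = 0.00787), and it made up most of that list's summed level of 19.9 to 21.1 CPM in NC and 31.1 to 35.7 in the siRNA libraries.

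**Figure D3:**
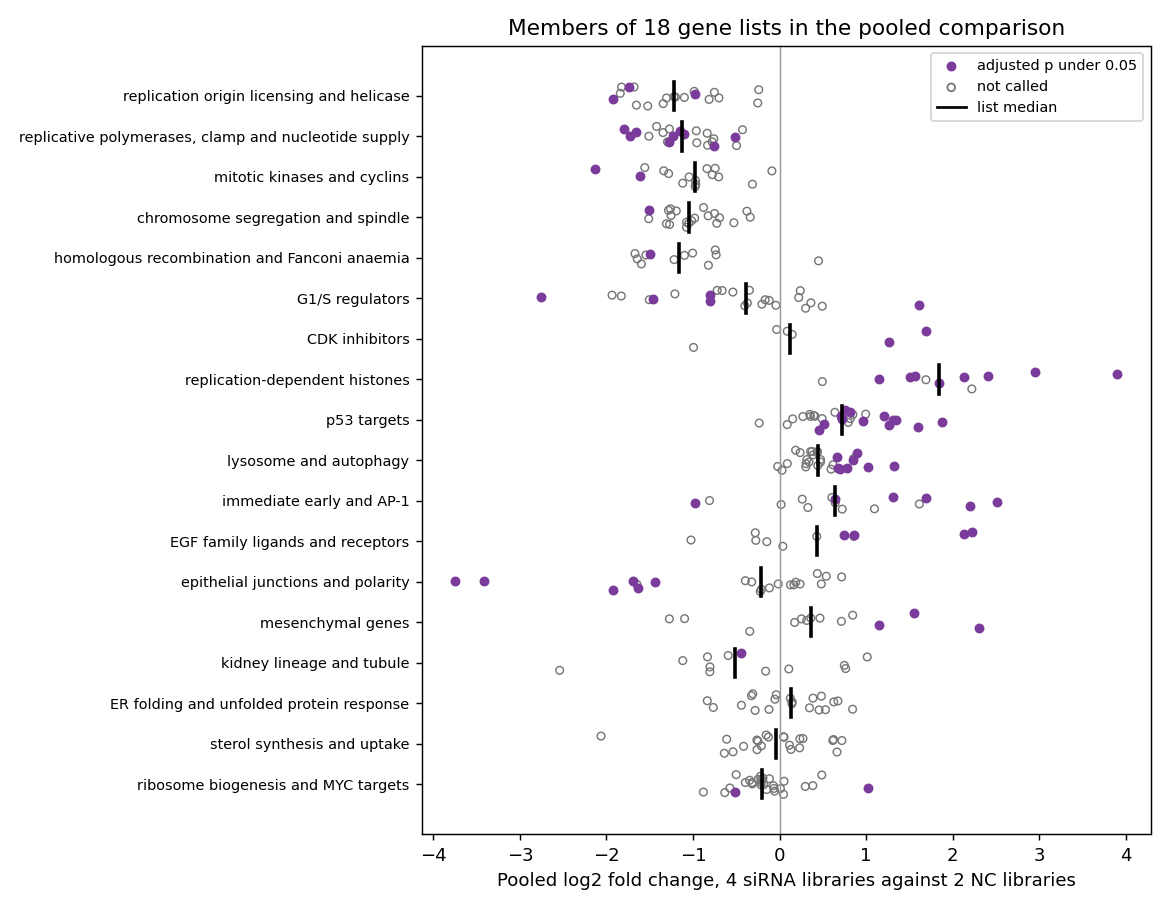
Pooled log2 fold change of every tested member of 18 gene lists; each circle is a gene, filled where its adjusted p was under 0.05, and the bar is the list median. The 5 lists of replication, mitosis and repair at the top have medians between -0.97 and -1.22, with few filled circles, while the replication-dependent histones have a median of 1.84 with 8 of 11 filled.

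The 15 largest rises among called genes with a mean normalized count of at least 100 and a name of their own, which leaves out names of clones, began with THBD, thrombomodulin, an anticoagulant receptor, at 6.95 and 12.7 normalized counts in NC, 367 and 385 with siMEX3A_1, and 114 and 132 with siMEX3A_2, a log2 fold change of 4.65 (SE 0.80; edgeR, adjusted p = 0.0188). HIST1H2BD and KLF4, described above, were among the next 3. SIK1, a salt-inducible kinase, rose from 751 and 710 to 6889 and 7341 and to 3902 and 3683, a log2 fold change of 2.90 (SE 0.38; edgeR, adjusted p = 0.00854). CYP1B1, a xenobiotic-metabolizing cytochrome P450, rose from 405 and 318 to 1495 and 1799 and to 2885 and 2867, a log2 fold change of 2.64 (SE 0.36; edgeR, adjusted p = 0.00931). The siRNAs ranked oppositely in SIK1 and CYP1B1, with siMEX3A_1 higher in the first and siMEX3A_2 higher in the second. KIAA1217 was even, from 207 and 222 to between 1018 and 1138. ANKRD1, a YAP target, MAP2, a microtubule-associated protein of neurons, and the long noncoding RNA LUCAT1 rose by 2.64, 2.51 and 2.42. Each had the siMEX3A_2 libraries highest. The call of LUCAT1 was lost without either siMEX3A_2 library (edgeR, adjusted p up to 0.0567). Of 15 tested YAP and TEAD targets 2 rose, 2 fell and 11 were not called, with a median of -0.06. Of 7 tested neuron markers 2, MAP2 and SYT1, rose, 2 fell and 3 were not called; those that fell were TAGLN3, from 303 and 357 to between 47.5 and 67.1, and SRRM3, from 252 and 255 to between 30.6 and 49.0. The call of SYT1 was lost without any of 3 siRNA libraries (adjusted p up to 0.0640). TVP23C-CDRT4, which is annotated as a readthrough of neighbouring genes and may share reads with them, varied from 65.1 to 263 within the siRNA libraries, and its call was lost without any of 3 of them (adjusted p up to 0.0729).

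The 15 largest falls began with SMTNL2, a smoothelin-like protein, with 284 and 270 normalized counts in NC, 19.2 and 17.3 with siMEX3A_1, and 23.0 and 16.0 with siMEX3A_2, a log2 fold change of -3.86 (SE 0.18; edgeR, adjusted p = 0.00196), ahead of CDH1. CKB, the brain-type creatine kinase, fell from 800.3 and 824 to between 106 and 137, a log2 fold change of -2.77 (SE 0.14; edgeR, adjusted p = 0.00196). SCARF2, a scavenger receptor, fell from 423 and 465 to between 54.1 and 76.0, a log2 fold change of -2.81 (SE 0.17; edgeR, adjusted p = 0.00305). In these 3 genes the libraries of both siRNAs lay close together, far below NC. FAM111B and S100A4 had log2 fold changes of -3.02 and -2.56, with the siMEX3A_1 libraries lowest. Among abundant genes SLC34A2, a phosphate transporter, fell from 6690 and 6577 to 1670 and 1669 with siMEX3A_1 and to 1103 and 1084 with siMEX3A_2, a log2 fold change of -2.26 (SE 0.22; edgeR, adjusted p = 0.00564). GLO1, the glyoxalase that clears methylglyoxal, fell from 2984 and 2938 to 743 and 797 and to 506 and 474, a log2 fold change of -2.23 (SE 0.23; edgeR, adjusted p = 0.00595), and TINAGL1, a matrix protein, from 15864 and 16156 to 5187 and 4983 and to 3383 and 3241.

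**Figure D4:**
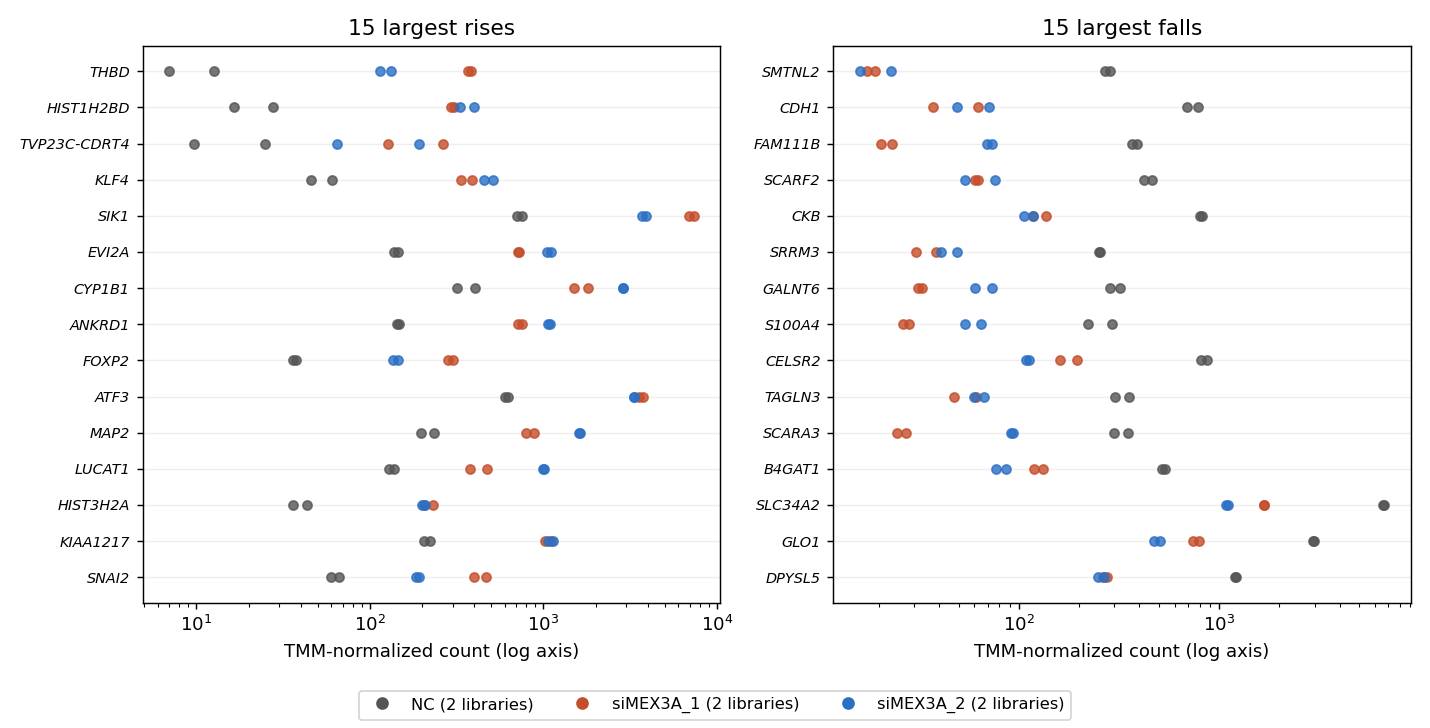
Normalized counts (log axis) of the 15 largest rises and 15 largest falls of the pooled comparison, clone names left out, 1 point per library, in grey for NC, orange for siMEX3A_1 and blue for siMEX3A_2. Every grey pair lies apart from all 4 siRNA points, which the choice of these genes required. For SMTNL2, SCARF2, CKB, ATF3 and KIAA1217 the orange and blue points fall together, while for THBD, SIK1 and SCARA3 they stand apart.

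Size differed between the siRNAs in many genes that shared a direction. Of the 4088 genes above NC 1950 (47.7%) differed by the direct test, 1196 with siMEX3A_1 the higher and 754 with it the lower. Of the 4144 below NC 1979 (47.8%) differed, 1203 with siMEX3A_1 the lower and 776 with it the higher. Both shares are close to the 51.6% of all tested genes. Among called genes 483 of those that rose (42.3%) and 392 of those that fell (37.1%) differed, shares that the pooled test itself lowers, since it counts the difference as spread. AOX1, aldehyde oxidase, rose from 205 and 259 normalized counts to 567 and 633 with siMEX3A_1 and to 1594 and 1547 with siMEX3A_2, and KCTD11 from 149 and 165 to 1037 and 1043 and to 444 and 417. These 2 genes were higher than NC with both siRNAs but in opposite order of size, and their calls were lost without any of 3 and without either of 2 siRNA libraries (adjusted p up to 0.0824 and 0.0707).

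At the edge of the one-side rule, among genes with a mean of at least 100, STAT4 was just inside on the high side, with 299.9 and 313 normalized counts in NC and 313 in each siMEX3A_2 library. ZC3H6 was just outside, with 301 in 1 NC library and 301 in 1 siRNA library. On the low side RBM41 was just inside and MT-CO2 just outside. Of the tested genes that matched a RefSeq entry 89.4% were protein-coding and 6.32% long noncoding RNAs. Among called genes that rose these shares were 92.4% and 6.09%, and among those that fell 97.4% and 1.79%.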

How the data were processed

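Gene counts of 6 mRNA libraries were analysed, 2 each of NC, siMEX3A_1 and siMEX3A_2, grouped by their titles. Per the file headers, the values analysed are expected counts that the authors made for each gene and deposited without normalization. The submitters' processing notes list RSEM, STAR, hg19 and GRCh37, with neither versions nor roles. The counting's strand setting is not stated in those sources. The authors' deposited tables also hold mean counts and test statistics, treated as scores, log2 fold changes and p-values of each siRNA against NC. Those of MEX3A are quoted above, and none of these values entered a test here.

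The deposited tables were joined by row order and name over 60409 rows, and expected counts were rounded. Of the rows, 4481 shared a name (at most 0.339% of a library), 27 held date-like names and 22816 were at 0 throughout. edgeR 4.0.16 (R 4.3.3) fitted the 4 siRNA libraries as 1 group against the 2 NC libraries, with TMM scaling, the default filter (18583 genes left) and the quasi-likelihood test; a Benjamini-Hochberg adjusted p under 0.05 was a call. Log2 values per siRNA and the direct test between siRNAs come from a fit with 3 groups; the contrasts against NC share the NC libraries, so their agreement is not a result. Each SE was obtained as the log2 value over the root of its F statistic. The one-side rule used TMM-scaled counts. The procedure was checked on simulated data with 200 changed genes, where it made more false calls than its nominal rate. At simulated log2 changes of 0.5 and 1 it recovered 151 and 188 of them and made 23 and 21 false calls. The simulated counts held no difference between the siRNAs, so the check does not cover that spread.

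Members and lists were chosen with earlier results of these data known. The genes named are MEX3A, every tested member of the MEX3 family, G1/S and CDK inhibitor lists, up to 4 genes of each other list (42 lists in all) by lowest p, the 15 largest rises and falls among called one-side genes with a mean of at least 100 and a unique symbol that is no clone or date name, the 5 largest with a mean of at least 1000, the 4 largest differences between siRNAs in each direction, and the genes beside the edge of the one-side rule. Alternatives were DESeq2 1.42.0, library size as the only scaling, no filter, a mean of at least 50 counts, the fit with 3 groups, a replicate block and leaving out each library. Depth was 18825750 to 19158723 counts per library. Counts of replicate libraries differed by more than sampling noise. RefSeq promoters (GRCh38.p14) matched 11872 of 15471 tested genes with such a symbol, and their coordinates were not mixed with the GRCh37 counts. Results for some genes are not reported here.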

Additional observations from a re-analysis of the deposited data

Results flagged for a closer look

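In 6 of the 211 named genes 1 of the 4 siRNA libraries stood apart from the other 3, with a gap to its neighbour that took more of the range than Dixon's 95% critical value for 4 samples allows. The share was 0.898 for POLA1, 0.866 for EREG, 0.899 for BMPR2, 0.926 for COL12A1, 0.878 for ITGA1 and 0.845 for EGFL7. That critical value assumes 4 independent libraries, whereas these are pairs within siRNAs, so the number flagged cannot be compared with a chance rate.

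The siRNAs differed by edgeR's direct test in 9582 genes, and in 30 of the 47 called genes among the MEX3, G1/S and CDK inhibitor lists, the largest changes and the largest differences. The differences that follow are siMEX3A_1 minus siMEX3A_2 on the log2 scale. Among genes that rose with both siRNAs, siMEX3A_1 was the higher for THBD (1.61), KCTD11 (1.27), SNAI2 (1.20), FOXP2 (1.06), SIK1 (0.91), CDKN1A (0.77), PPP1R14B (0.62), MEX3D (0.25), CDKN2B (0.25) and PPP1R15A (0.17). It was the lower for AOX1 (-1.39), LUCAT1 (-1.24), MAP2 (-0.95), CYP1B1 (-0.80), EVI2A (-0.58), ANKRD1 (-0.55) and KLF4 (-0.41). Among genes that fell with both, siMEX3A_1 was the lower for E2F2 (-2.30), SCARA3 (-1.82), FAM111B (-1.70), ISOC1 (-1.42), S100A4 (-1.12) and GALNT6 (-1.05). It was the higher for MMP15 (1.27), MCAM (0.98), CELSR2 (0.68), GLO1 (0.65), B4GAT1 (0.62), TINAGL1 (0.62) and SLC34A2 (0.61).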

How the results depend on the processing

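The count of called genes, 2199, moved by over 1.5 times under several alternatives. DESeq2 called 3433, of which 1912 were higher. With no filter on low counts 1454 were called, 706 of them higher. With 3 groups in the fit and the mean of both siRNAs against NC, 9625 were called, 4642 higher and 4983 lower; by construction a difference between siRNAs is then not spread. Leaving out 1 library gave between 0 and 1508 calls, 0 to 776 higher and 0 to 732 lower. The 0 came from leaving out either NC library, which leaves a lone control assumed to vary like the siRNA libraries; leaving out a siMEX3A_1 library gave 1508 and 1154 calls, and a siMEX3A_2 library 1300 and 1317. With the replicate number as a block 662 were called, 310 higher and 352 lower. The labels do not say whether the numbers pair the libraries. Deviations of same-numbered libraries correlated at -0.33 (NC and siMEX3A_1), 0.12 (NC and siMEX3A_2) and -0.05 (siMEX3A_1 and siMEX3A_2), which does not settle it. With the siMEX3A_1 numbers crossed, chosen after seeing the data, 739 were called, 358 higher and 381 lower. The cause of the other moves was not tested. With library size as the only scaling, which shifts the median gene by -0.04, 2172 genes were called and 46.8% of them were higher, against 51.9%. No call shared with the pooled comparison changed direction under any of these settings. Of the 137 called genes named, 93 kept their call without each single siRNA library and none without an NC library. The counts of the one-side rule and of genes that differ between siRNAs stayed within 1.5 times under every alternative run. Low expected counts limit genes such as CLDN3 and ALDOC.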
